A study of Mus musculus with 12 samples.

Results

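The cytosolic ribosomal protein genes were described in neurospheres grown from the embryonic mouse hypothalamus and exposed to dexamethasone. The genes were taken by name: protein-coding loci of the deposited expression table whose symbol starts with Rps or Rpl and a digit, without the S6 kinases and without symbols marked as pseudogenes. This rule gave 76 genes of 40597 loci, of which 21852 were protein-coding. By name, 33 belong to the small and 43 to the large ribosomal subunit. Of the 76, 71 had a mean of at least 1 FPKM (mapped fragments scaled by transcript length and by the size of the library) over all libraries and were tested, 31 with small-subunit and 40 with large-subunit names. Neurospheres are free-floating balls of dividing neural stem and progenitor cells. All cultures came from C57Bl/6 embryos at day 14.5, were at passage 3 and carried no genetic change named in the labels. For 4 h, cultures of each sex were given either 100 nM of the synthetic glucocorticoid dexamethasone or ethanol as its vehicle, with 3 replicates in each of the 4 groups, 12 libraries in all. The labels call the replicates biological without saying whether they came from separate embryos, and the p-values measure the spread between them.

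Ribosomal proteins and ribosomal RNA make up the small (40S) and large (60S) subunits of the ribosome, and dividing cells spend much of their transcription on them. Their mRNAs are short, abundant and evenly expressed, and most begin with a C followed by a run of C and T bases, the 5′ terminal oligopyrimidine (TOP) tract. Through this tract the kinase mTORC1 and the binding protein Larp1 control how fast these mRNAs are translated, so their RNA level and their translation can move apart. Dexamethasone acts through the glucocorticoid receptor, a transcription factor.

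The genes known to answer glucocorticoids did so in these cultures: Fkbp5, Tsc22d3, Klf9, Per1 and Zbtb16, all 5 of a list of 5, rose in both sexes, with a median log2 difference of 2.42 averaged over sexes. All 8 listed neural stem or progenitor markers were above 1 FPKM, led by Fabp7 (mean 3503 FPKM), as were all 6 oligodendrocyte lineage markers, led by Olig1 (211 FPKM) and Olig2 (132.5 FPKM), and all 4 astrocytic ones. Of 6 neuronal markers only Tubb3 passed 1 FPKM (mean 4.98), and none of the microglial, endothelial, mural and erythroid markers did. Of 5 hypothalamic markers, Six3 (mean 26.5 FPKM, 0.0640 to 50.6 over libraries) and Lhx2 (2.18 FPKM) passed 1 FPKM, whereas Nkx2-1, Rax and Six6 were near 0. The summed level of 4 astrocytic markers ran from 15.4 to 178 FPKM over the libraries, and its part in the results below was not tested. It lay between 15.4 and 139 FPKM in male vehicle, 18.5 and 178 in male dexamethasone, 45.2 and 113 in female vehicle and 53.5 and 142 in female dexamethasone libraries. The groups overlapped, and a fall in the share of a cell type and a fall in RNA per cell cannot be told apart in such bulk samples. The 2 libraries male vehicle 3 and male dexamethasone 2 stood apart, since loci with no gene name took 74.99% and 53.1% of their summed FPKM, against 11.6% to 38.6% in the other 10.

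Transcription start windows of 30 bases are shown for genes described below, with Rpl15 and Rpl35a as further carriers of the tract, because the TOP tract is the sequence these genes are known for. They come from RefSeq on build GRCm38.p6, run 5′ to 3′ with 15 bases on each side of the listed start, and the capitals mark the run of C and T that begins with a C at the start. The first 6 carry a tract and the last pair do not.
Rps15a, chr7:118116133-118116162, minus strand: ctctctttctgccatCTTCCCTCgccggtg
Rps6, chr4:86857353-86857382, minus strand: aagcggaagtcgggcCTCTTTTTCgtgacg
Rps27, chr3:90213634-90213663, minus strand: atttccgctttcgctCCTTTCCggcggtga
Rpl38, chr11:114668565-114668594, plus strand: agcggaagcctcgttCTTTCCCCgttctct
Rpl15, chr14:18270972-18271001, minus strand: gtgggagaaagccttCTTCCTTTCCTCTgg
Rpl35a, chr16:33056467-33056496, plus strand: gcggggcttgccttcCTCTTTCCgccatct
Rpl26, chr11:68901551-68901580, plus strand: ctcgcggcaacttacagaaccggaagtcgc
Rps4x, chrX:102189377-102189406, minus strand: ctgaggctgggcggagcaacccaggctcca

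Of the 71 tested genes, 55 had a promoter of that name in RefSeq. A tract was defined as a C at a listed start followed by at least 4 bases that are C or T. Of the 55 genes, 12 (21.8%) had one, against 3.01% of 27025 genes and 2.89% of 8197 tested protein-coding genes. Rpl35a and Rps21 are among the 12, though each also has a listed start without a tract. The start is the annotation's and was not measured here, so a start listed a few bases away hides a tract. Within 250 bases before to 50 bases after the start, and on either strand, the letters CCGGAAG, the core bound by ETS factors, were found in 22 of the 55 promoters, against 9.93% of all and 20.8% of tested protein-coding genes. The TATA box letters TATAAA were found in 10.9%, against 15.7% and 8.14%. AGAACA, a single arm of the glucocorticoid response element, was found in 14.5%, against 21.3% and 14.0%. These motifs can share letters. Read on the other strand, CCGGAAG opens with a tract as defined above, and its last letters, AG, begin AGAACA. These matches describe letters in a window and say nothing of binding.

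The ribosomal protein genes were among the most abundant mRNAs of the cultures. Their median level was 500.2 FPKM over the 71 tested genes, against 13.8 FPKM over all tested protein-coding loci, and 33 of the 100 highest protein-coding loci belonged to them. Of the 71 genes, 67 reached 100 FPKM and 12 reached 1000 FPKM. The highest means per length were those of Rps15a (1941 FPKM), Rpl18 (1830), Rps3 (1798), Rpl26 (1534) and Rps27 (1485). Small-subunit genes had a median of 708 FPKM and large-subunit genes of 472 FPKM.

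At the low end were genes that bear a ribosomal protein name without being a standard part of the ribosome. Rps4y2 had a mean of 2.201 FPKM, and its identifier is annotated in GENCODE M21 as Rps4l, a transcribed processed pseudogene. Rps19bp1, which encodes a binding partner of Rps19 and not a ribosomal protein, had 28.7 FPKM, and Rpl7l1, a nucleolar relative of Rpl7, had 48.0 FPKM. Next came Rpl29 (90.3 FPKM) and Rpl36al (119 FPKM), both ribosomal. The 5 genes below 1 FPKM were copies of other ribosomal protein genes: Rpl10l and Rpl39l, known from testis, were listed at 0 in every library, the muscle gene Rpl3l had a mean of 0.0282 FPKM, Rps3a2 of 0.0124 and Rps3a3 of 0.451. Rps3a2 and Rps3a3 are typed as protein-coding in the deposited table and as processed pseudogenes in GENCODE M21.

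In male vehicle cultures the 76 genes took 9.97%, 8.86% and 9.78% of all protein-coding FPKM, and in male dexamethasone cultures 9.98%, 9.62% and 10.4%. The female vehicle cultures gave 10.03%, 8.94% and 8.42%, and the female dexamethasone cultures 10.5%, 10.6% and 8.76%. The groups overlapped in both sexes, with means of 9.54% ± 0.594 (SD, n = 3) and 9.999% ± 0.388 in males and of 9.13% ± 0.821 and 9.97% ± 1.05 in females. In each sex the lowest dexamethasone library lay below the highest vehicle library. Small-subunit and large-subunit genes contributed almost equally, 4.84% and 4.70% in male vehicle and 5.08% and 4.89% in female dexamethasone cultures. The genes of the mitochondrial ribosome, built from separate proteins, took 0.822%, 0.818%, 0.819% and 0.837% in male vehicle, male dexamethasone, female vehicle and female dexamethasone cultures.

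**Figure D1:**
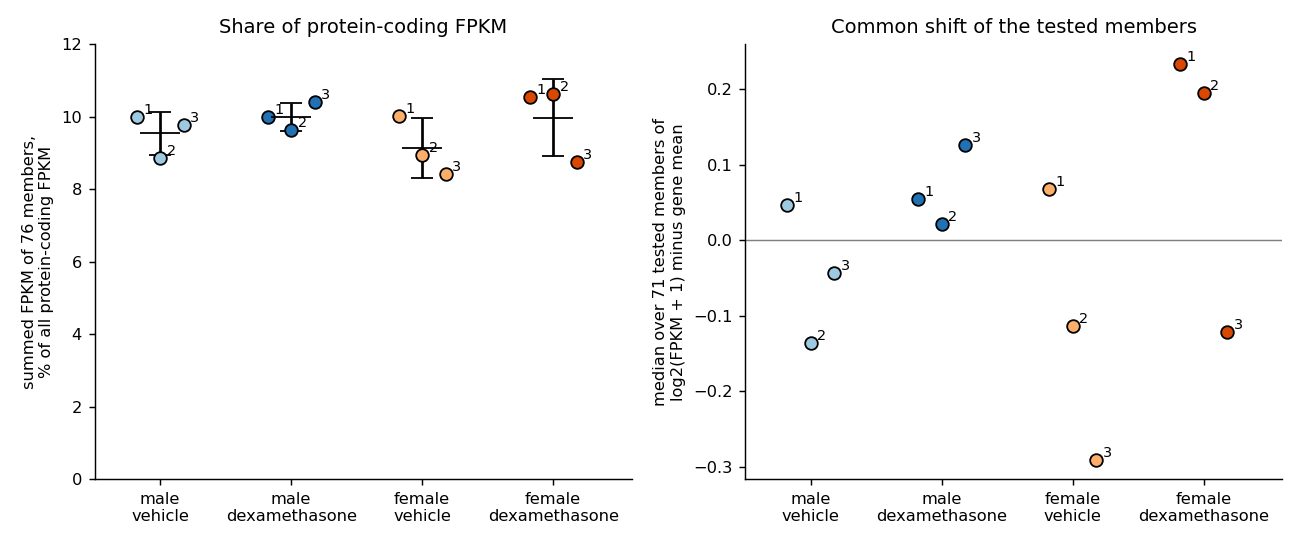
Left, summed FPKM of the 76 genes as a percentage of all protein-coding FPKM in each of the 12 libraries, with the group mean and SD (n = 3); right, the median over the 71 tested genes of log2(FPKM + 1) minus each gene's mean over the libraries. Numbers beside the points are replicate numbers; the shares lie between 8.42% and 10.6% and the groups overlap.

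Dexamethasone left no ribosomal protein gene past the test, while nearly all of them had small fitted differences above 0. With log2(FPKM + 1) fitted over 14931 loci in limma and a call at an adjusted p under 0.05, 0 of 71 were called in males, where 0.315% of all loci were called, 0 of 71 in females (0.482% of all loci) and 0 of 71 with both sexes averaged (1.53% of all loci). The fitted difference averaged over sexes had a median of 0.17 on the log2 scale, a ratio of 1.12, and was above 0 for 67 of 71 genes (94.4%), against 48.5% of all loci and a median of -0.0033 over tested protein-coding loci. This direction depended on the scaling, since after quantile normalization the median was -0.027 and 26 of 71 differences were above 0. Quantile normalization gives every library the same set of values, so it can itself remove a shift shared by the most abundant genes, such as these. Over 672 other protein-coding genes of at least 100 FPKM it took the median from 0.081 to -0.030. Scaled to the protein-coding total the median of the 71 genes was 0.083 with 61 of 71 above 0, under which the median over all tested loci was -0.078. At an unadjusted p under 0.05, 15 of 71 genes (21.1%) stood above 0 and none below, against 6.86% of all loci above 0. This count also depended on the scaling. Scaled to the protein-coding total, 2 of 71 genes met the threshold, 1 of them above 0, beside 2330 of 14931 loci. After quantile normalization 1 of 71 met it, below 0, beside 1904 of 14931 loci. With values as deposited, the same threshold was met by 7 of 71 in females (all above 0, against 4.59% of all loci) and 0 of 71 in males (3.35%). Within a sex the median was 0.12 in males, with 66 of 71 above 0 against 47.4% of all loci, and 0.22 in females, with 68 of 71 above 0 against 48.2%.

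The intervals describe the spread between replicates with values as deposited and leave out the choice of scaling. For Rpl18 the quantile-normalized averaged difference of -0.17 lay outside its interval of -0.081 to 0.34. The median distance from the fitted value to either end of its 95% interval was 0.21 on the log2 scale for the averaged difference and 0.30 within a sex. All 71 upper bounds of the averaged difference were below 1, which is a doubling of FPKM + 1, and the highest of them was 0.73. The lower bounds were -0.32 or higher for 70 of 71 genes, and that of Rps4y2 was -1.01.

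**Figure D2:**
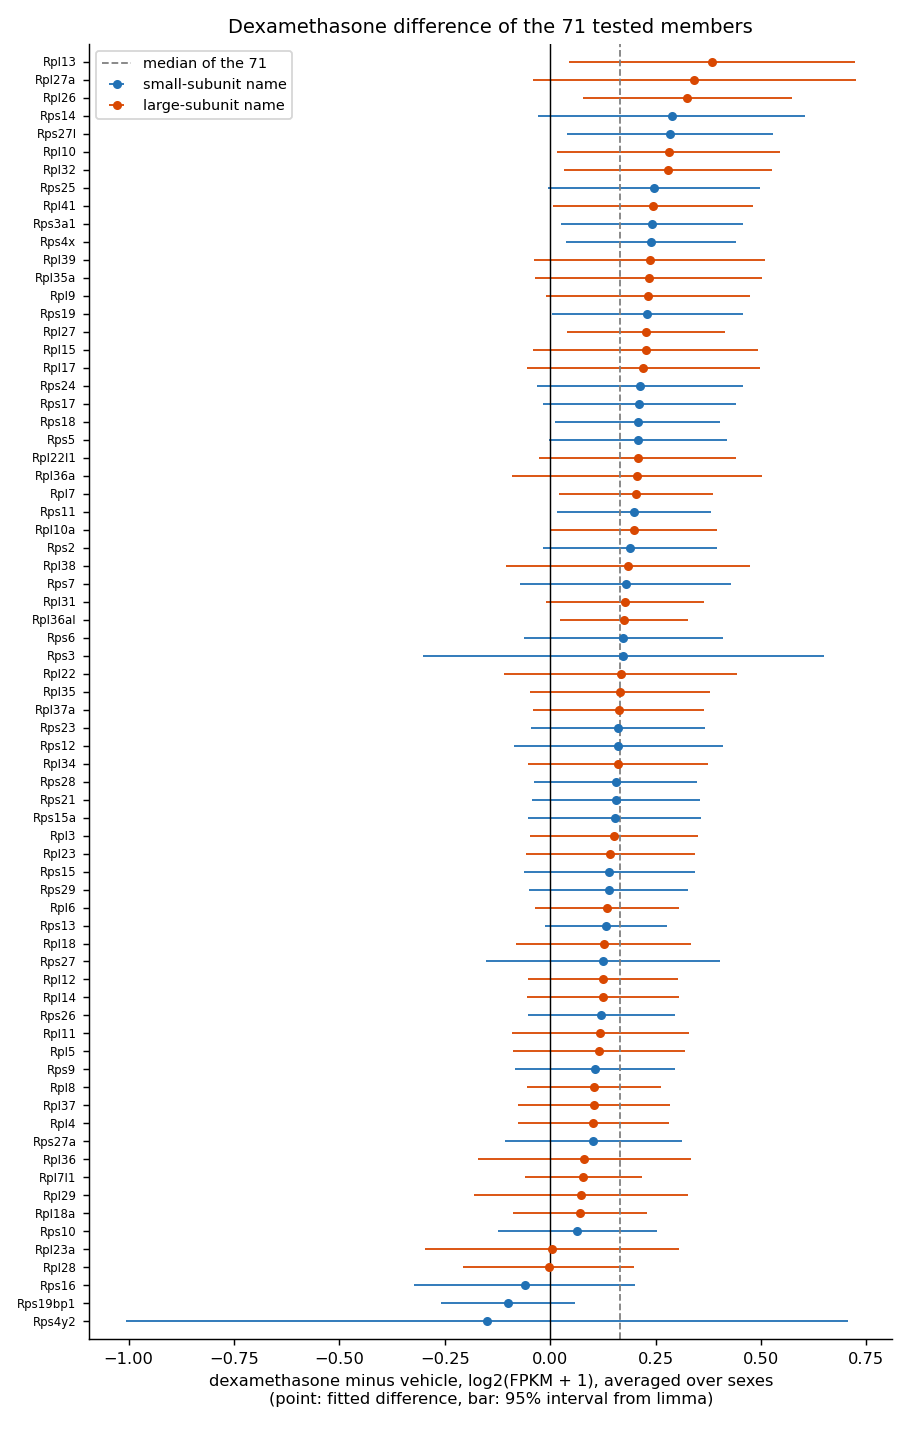
Fitted difference of dexamethasone minus vehicle on the log2(FPKM + 1) scale, averaged over sexes (6 libraries against 6), for the 71 tested genes in order of size, with 95% intervals from limma. With values as deposited, the points run from -0.15 (Rps4y2) to 0.38 (Rpl13) around a median of 0.17, and 15 intervals lie above 0.

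Rpl26, at the exit of the peptide tunnel and a regulator of p53 translation, had the lowest adjusted p of the group. It measured 1556, 1293 and 1280 FPKM in male vehicle and 1511, 1677 and 1574 in male dexamethasone libraries, and 1619, 1231 and 1190 in female vehicle and 2010, 1943 and 1521 in female dexamethasone libraries. In both sexes the vehicle library 1 was above the lowest dexamethasone library, so the groups overlapped. The averaged log2 difference was 0.33 (SE 0.11, adjusted p = 0.247), and -0.0088 after quantile normalization.

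Rps4x, a small-subunit protein encoded on the X chromosome, had male dexamethasone values wholly above male vehicle values. It measured 699, 633 and 657 FPKM in male vehicle, 796, 719 and 781 in male dexamethasone, 737, 620 and 559 in female vehicle and 823, 830 and 657 in female dexamethasone libraries. The averaged log2 difference was 0.24 (SE 0.090, adjusted p = 0.290). Such a separation was found in males for 12 of 71 genes (16.9%), among them Rps15a and Rpl7, against 5.73% of all tested loci, and in females for 2 of 71 (2.82%), against 6.95%. The 2 were Rpl36al and Rpl27, the latter named after its values were seen, and no gene showed the opposite separation in either sex. These counts rest on the values as deposited. The genes moved together from library to library, as described below, so the 12 are not independent of each other.

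When each dexamethasone library was set beside the vehicle library of the same sex and number, 36 of 71 genes (50.7%) were higher in all 6 comparisons, against 9.83% of all loci. The share was 33.7% among 193 other protein-coding genes of at least 100 FPKM with a longest transcript under 1500 bases. Among the 74 tested genes of mitochondrial ribosomal proteins it was 25.7%. These shares rest on the values as deposited. Of the 71 genes, a further 26 were higher in 5. The median difference over the 71 genes was 0.013, 0.18 and 0.18 on the log2 scale for male numbers 1 to 3 and 0.17, 0.35 and 0.15 for female numbers 1 to 3. Male number 1 was the one in which the genes were split, with 39 of 71 higher. The labels do not say what a shared number means.

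The genes moved together from library to library, within groups as well as between them. Taking each gene against its own mean over the 12 libraries, the median over the 71 genes was lowest in female vehicle 3 (-0.29 on the log2 scale) and highest in female dexamethasone 1 (0.23) and 2 (0.20). Female dexamethasone 3, at -0.12, lay below both female vehicle 1 (0.069) and female vehicle 2 (-0.11). In males the vehicle libraries stood at 0.047, -0.14 and -0.044 and the dexamethasone libraries at 0.055, 0.022 and 0.13. Female vehicle 3 was the lowest of 12 libraries for 57 genes, and female dexamethasone 1 or 2 the highest for 31 and 22. Without female vehicle 3 the median difference in females was 0.12 on the log2 scale instead of 0.22, and without female dexamethasone 3 it was 0.32.

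The median SD of a gene over the libraries was 0.17 on the log2 scale as measured and 0.076 after the library medians of the group were subtracted, and 51 of 71 genes then had an SD under 0.1. For 193 other protein-coding genes of at least 100 FPKM with a longest transcript under 1500 bases, the same step on their own medians took the SD from 0.18 to 0.14. The averaged difference of 58 of 71 genes lay within 0.1 of the group's median. Only 1 gene differed from that median by more than 2 of its own SE, Rps19bp1.

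**Figure D3:**
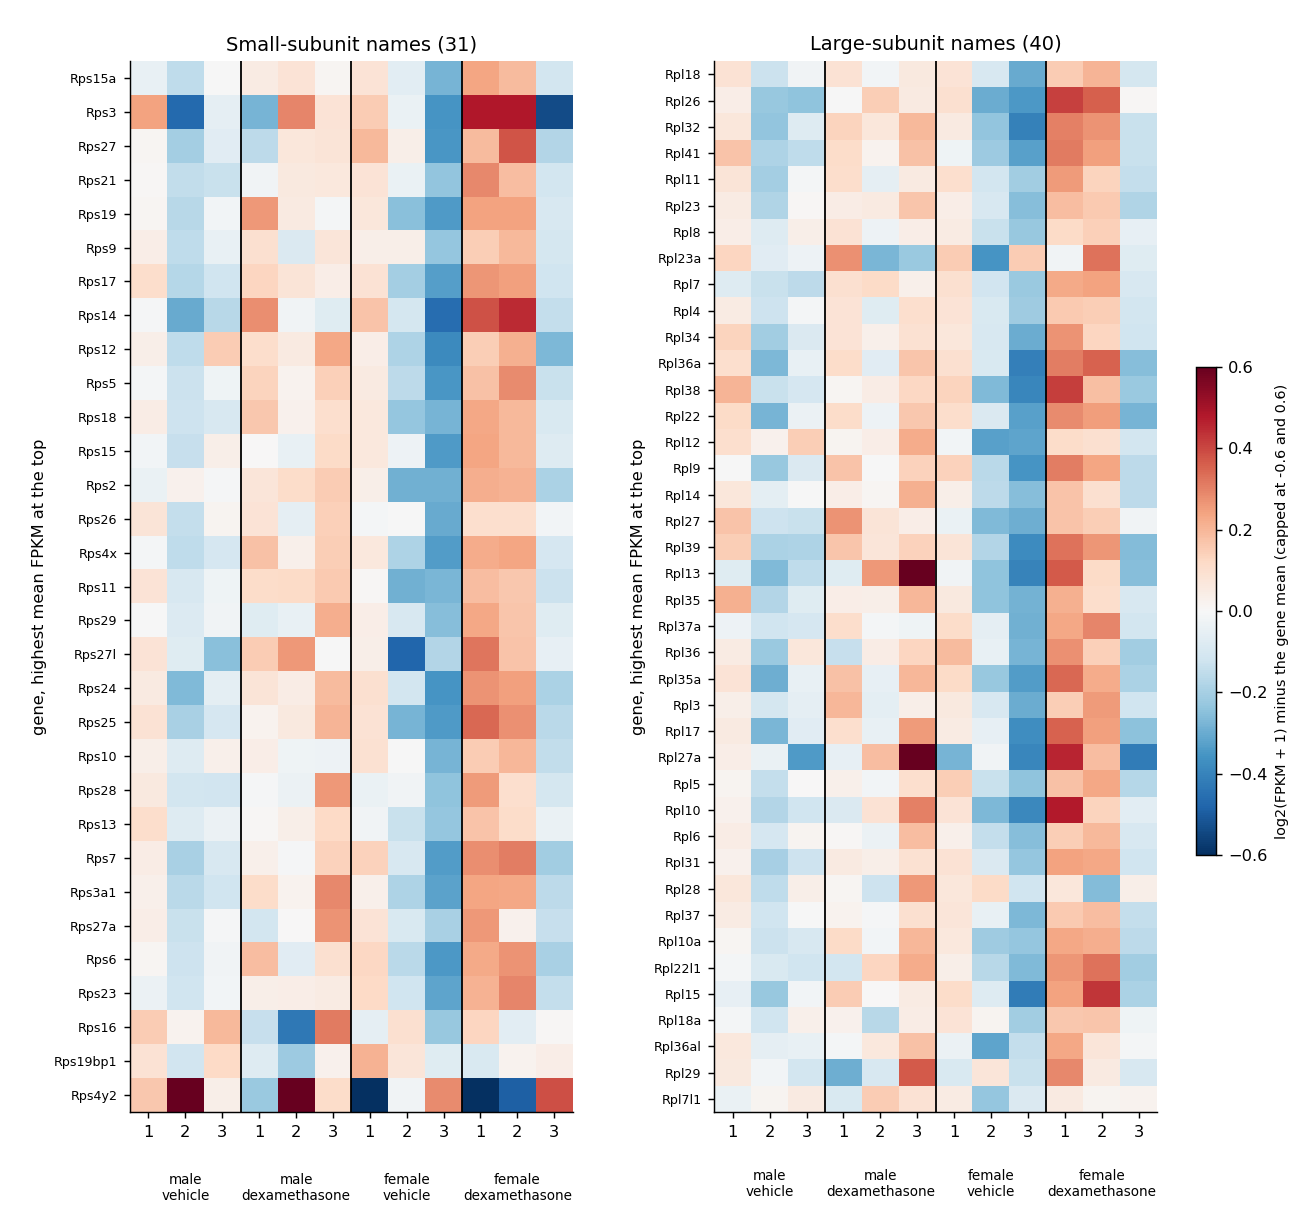
Each row is a tested gene and each column a library; color gives log2(FPKM + 1) minus the gene's mean over the 12 libraries, capped at -0.6 and 0.6, with genes ordered by mean FPKM. Whole columns share a color: female vehicle 3 is low and female dexamethasone 1 and 2 are high for nearly every gene, with Rps4y2, Rps19bp1 and Rps16 among the exceptions.

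Other abundant genes with short mRNAs had differences of a similar sign and somewhat smaller size. The 71 genes have a median longest transcript of 1094 bases, against 3486.5 bases over tested protein-coding loci. Over the 193 abundant short genes the median averaged difference was 0.13 on the log2 scale, and 86.5% of them were above 0. Over 470 genes of at least 100 FPKM with transcripts of at least 1500 bases it was 0.059 (68.1% above 0). Over genes of 10 to 100 FPKM and of 1 to 10 FPKM it was 0.010 and -0.048. These sets also differed in level, with a median of 500 FPKM for the 71 genes, 215 for the 193 short ones and 169 for the 470 long ones. The limits of 100 FPKM and 1500 bases were chosen after the values were seen. The 74 tested genes of mitochondrial ribosomal proteins had a median of 0.11 (85.1% above 0). Quantile normalization gave -0.027 for the cytosolic group, 0.015 for the abundant short genes and 0.077 for the mitochondrial group. The part of transcript length and abundance in the cytosolic group's values was not tested.

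**Figure D4:**
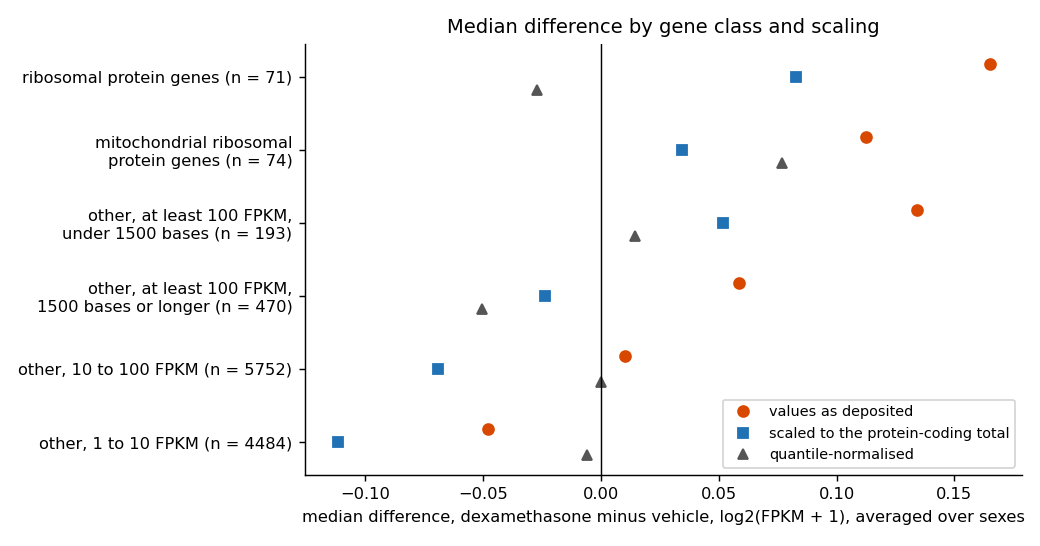
Median fitted difference of dexamethasone minus vehicle, averaged over sexes, for the tested ribosomal protein genes and for other protein-coding genes by level and transcript length, under 3 scalings. With values as deposited the medians run from 0.17 for the ribosomal protein genes to -0.048 for genes of 1 to 10 FPKM; after quantile normalization the ribosomal protein genes stand at -0.027.

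Genes with and without a tract at a listed start had similar medians. The 12 genes with a TOP tract at a listed start had a median averaged difference of 0.16 on the log2 scale. The 43 with listed starts but no tract at any of them had 0.17. Some of the 43 may carry a tract that the listed start hides. In Rpl18 a run of C and T begins just past the listed start, and in Rpl27a the run there opens with T. The medians therefore do not compare genes with and without a tract in their mRNA, and the part of the tract was not tested. Among those printed above, Rps15a measured 1871, 1741 and 1930 FPKM in male vehicle and 1998, 2048 and 1946 in male dexamethasone libraries, without overlap. In females it measured 2045, 1850 and 1591 with vehicle and 2279, 2202 and 1792 with dexamethasone, with overlap, for an averaged log2 difference of 0.15 (SE 0.092, adjusted p = 0.497). Rps6, the substrate of S6 kinase, measured 217, 198 and 213 FPKM in male vehicle, 246, 206 and 230 in male dexamethasone, 235, 193 and 170 in female vehicle and 253, 261 and 189 in female dexamethasone libraries. The averaged log2 difference of Rps6 was 0.17 (SE 0.11, adjusted p = 0.502), with overlap in both sexes.

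Among genes of named roles in the large subunit, Rpl5 and Rpl11, which carry 5S ribosomal RNA into the subunit and bind Mdm2 when assembly fails, had averaged log2 differences of 0.12 (SE 0.092 and 0.094). Rpl11 measured 977 ± 94.7 FPKM in male vehicle and 1031 ± 58.3 in male dexamethasone cultures and 959 ± 107 and 1072 ± 148 in female ones (SD, n = 3). Of 8 genes listed for the peptide tunnel and its exit, all 8 had a difference above 0 and none was called. Their median of 0.17 became -0.015 after quantile normalization. Of the 71 tested genes 94.4% were above 0, and of all loci 48.5% were above 0 and 1.53% called. Rpl10 and Rpl29, which join the large subunit late, had log2 differences of 0.28 (SE 0.12) and 0.073 (SE 0.11). Rpl10 shared its row with the small nucleolar RNA Snora70, which lies in an intron.

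The 13 genes whose loss of 1 copy causes Diamond-Blackfan anaemia, a failure of red cell production, were all above 0 with a median of 0.18 and none called. The median was -0.034 after quantile normalization. These counts repeat those of the whole group, in which 94.4% were above 0 and none called, against 48.5% and 1.53% of all loci. Rps25, Rpl10a and Rpl38, which have been linked to translation of selected mRNAs, had averaged log2 differences of 0.25 (SE 0.11), 0.20 (SE 0.088) and 0.18 (SE 0.13). Rpl38 measured 696, 550 and 563 FPKM in male vehicle, 608, 622 and 657 in male dexamethasone, 662, 502 and 459 in female vehicle and 806, 684 and 518 in female dexamethasone libraries, and the groups overlapped. Rps27a, made as a fusion with ubiquitin, had a difference of 0.10 (SE 0.094).

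The proportions within paralog pairs overlapped between dexamethasone and vehicle libraries in both sexes. Rpl22l1, which can take the place of Rpl22, stood at 29.2% ± 3.54 of the FPKM of Rpl22 in male vehicle, 29.4% ± 3.93 in male dexamethasone, 28.6% ± 1.57 in female vehicle and 30.1% ± 1.12 in female dexamethasone cultures (SD, n = 3). Rpl36al, a copy on chromosome 12, stood at 19.5% ± 1.86, 18.8% ± 1.66, 18.5% ± 3.47 and 18.4% ± 3.40 of the X-linked Rpl36a in the same order. Rpl7l1 stood at 6.82% ± 0.415, 6.10% ± 0.568, 6.18% ± 0.584 and 5.85% ± 0.771 of Rpl7. No source used here says how reads were shared between near-identical copies, so these proportions are uncertain.

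Rps27l, a p53 target and relative of Rps27, had the widest proportions. It measured 662, 594 and 526 FPKM in male vehicle, 695, 750 and 624 in male dexamethasone, 640, 450 and 554 in female vehicle and 780, 704 and 604 in female dexamethasone libraries. It was higher in all 6 same-numbered comparisons, though the groups overlapped in both sexes, with an averaged log2 difference of 0.28 (SE 0.11, adjusted p = 0.298). Relative to Rps27 it stood at 42.9% ± 4.74 and 47.2% ± 6.34 in male vehicle and dexamethasone and at 38.6% ± 9.04 and 43.3% ± 5.53 in female ones. Rps27 itself measured 1388 ± 104 and 1471 ± 130 FPKM in males and 1449 ± 269 and 1630 ± 306 in females, and a near-identical locus outside the name rule, Gm9846, had a mean of 1014 FPKM.

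**Figure D5:**
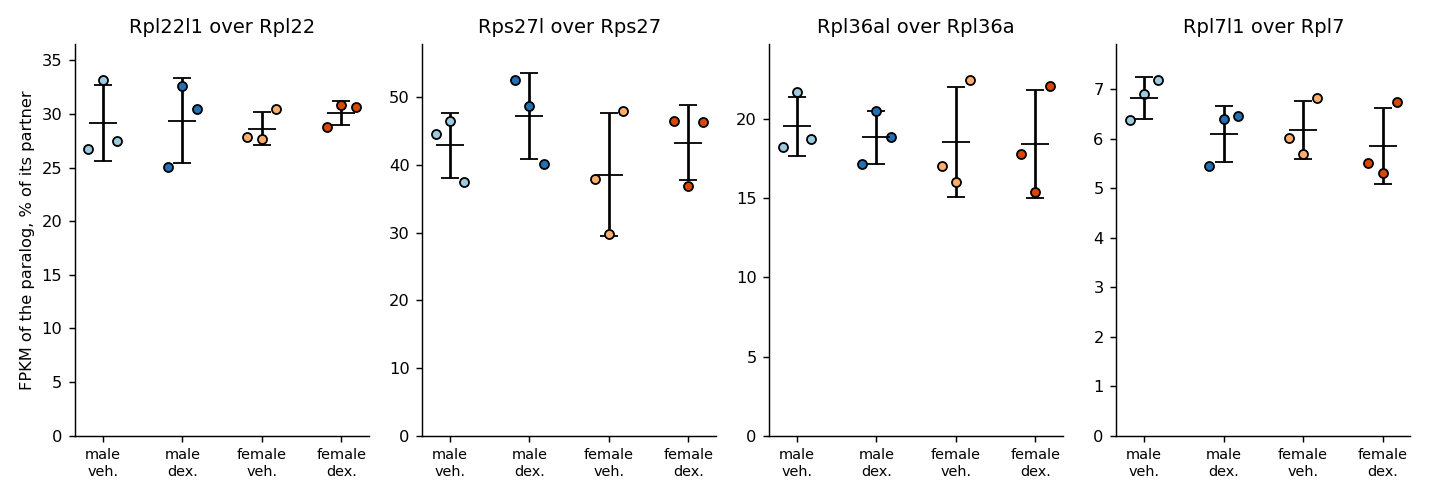
FPKM of each paralog as a percentage of its partner in each of the 12 libraries, with the group mean and SD (n = 3). In all 4 pairs the dexamethasone and vehicle libraries overlap; Rps27l over Rps27 spans 29.8% to 52.6%.

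The 4 X-linked genes had averaged log2 differences of 0.28 (Rpl10), 0.24 (Rps4x), 0.24 (Rpl39) and 0.21 (Rpl36a), none of them called (1.53% of all loci). Rpl39, a short protein of the tunnel wall, measured 458 ± 63.3 and 524 ± 17.7 FPKM in male vehicle and dexamethasone cultures and 433 ± 69.0 and 526 ± 109 in female ones. Rpl36a measured 607 ± 76.8 and 668 ± 55.7 FPKM in males and 584 ± 101 and 710 ± 155 in females.

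The largest and the smallest differences belonged to genes that departed from the common pattern. Rpl13 measured 445, 389 and 421 FPKM in male vehicle, 444, 560 and 780 in male dexamethasone, 461, 395 and 354 in female vehicle and 604, 506 and 391 in female dexamethasone libraries. Its averaged log2 difference of 0.38 (SE 0.15, adjusted p = 0.310) had its largest single value in male dexamethasone 3. Rpl27a behaved alike, with 367, 348 and 282 FPKM in male vehicle, 345, 407 and 567 in male dexamethasone, 294, 352 and 273 in female vehicle and 491, 407 and 267 in female dexamethasone libraries, and a difference of 0.34 (SE 0.17, adjusted p = 0.411). Rps3 ranged from 1207 FPKM in female dexamethasone 3 to 2444 FPKM in female dexamethasone 1, with a difference of 0.17 (SE 0.21).

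These 3 genes, with Rpl23a, sit in rows that the table joins with small nucleolar RNAs lying in their introns: Rpl13 with Snord68 and a microRNA, Rpl27a with Snora3, Rps3 with Snord15b and Rpl23a with Snord42b. Of the 8 such joined rows among the tested genes, 4 had an SD over 0.2 on the log2 scale after the library medians were subtracted, against 2 of the other 63, and the median SD was 0.17 against 0.072. The part of small nucleolar RNA reads in these values was not tested. The 2 single-gene exceptions were Rps4y2, at 2.201 FPKM, and Rps16.

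Rps16 measured 210, 192 and 217 FPKM in male vehicle, 172, 140 and 236 in male dexamethasone, 182, 202 and 162 in female vehicle and 207, 181 and 190 in female dexamethasone libraries. The male dexamethasone values lay on both sides of the vehicle values, and the averaged log2 difference was -0.061 (SE 0.12). Rpl28, one of the genes with a TOP tract, had a difference of -0.0036 (SE 0.091) and Rpl23a of 0.0043 (SE 0.14). Rps19bp1 was the only tested gene below -0.05 other than Rps16 and Rps4y2, with 29.4 ± 2.62 and 26.9 ± 2.32 FPKM in male vehicle and dexamethasone cultures, 30.2 ± 3.02 and 28.5 ± 1.41 in female ones, and a difference of -0.10 (SE 0.071, adjusted p = 0.570). Rps14, a protein of the small-subunit platform, lay at the other end with 975, 796 and 873 FPKM in male vehicle, 1190, 965 and 930 in male dexamethasone, 1105, 910 and 714 in female vehicle and 1277, 1335 and 887 in female dexamethasone libraries. It was higher in all 6 same-numbered comparisons, with a difference of 0.29 (SE 0.14, adjusted p = 0.403).

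The sexes were compared by the test of the difference itself. The female minus male difference of the dexamethasone effect was above 0 for 68 of 71 genes (52.5% of all loci) with a median of 0.10 on the log2 scale, and 0 of 71 were called (0.0335% of all loci), the lowest adjusted p being 1.00. Its median moved between 0.0045 and 0.22 as single libraries were left out, 0.0045 being the value without female vehicle 3. In vehicle cultures the female minus male difference had a median of -0.063 with 10 of 71 genes above 0 (57% of all loci) and 0 called (0.0737% of all loci). Without female vehicle 3 that median was 0.024. In dexamethasone cultures the median was 0.030 with 54 of 71 above 0 (59.9% of all loci) and 0 called (0.067% of all loci), and it was -0.017 with values scaled to the protein-coding total. At an unadjusted p under 0.05 the sex comparison in vehicle cultures held 1 gene, Rpl12, named after its values were seen, at 623 ± 26.3 FPKM in males and 504 ± 63.8 in females (adjusted p = 0.892; 4.88% of all loci met that threshold).

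Ribosomal protein genes outside the rule gave similar values, to set beside 48.5% of all loci above 0 and 1.53% called. The 7 standard genes Rpl7a, Rpl13a, Rpl19, Rpl21, Rpl24, Rpl30 and Rps20 were in joined rows that carry no gene type and so failed the rule. Their rows had averaged log2 differences of 0.16 to 0.40, all above 0, with a median of 0.22 (0.022 after quantile normalization) and a lowest adjusted p of 0.376. The row of Rpl13a, joined with Flt3l and 3 small nucleolar RNAs, had a mean of 6839 FPKM, against at most 983 FPKM for the other 6. Of 7 found genes whose products are ribosomal but named otherwise, 7 were above 0 and none was called, with a median of 0.13 (-0.024 after quantile normalization). Among them Rplp0, a protein of the ribosomal stalk, had 0.18 (SE 0.066, adjusted p = 0.277) and Rpsa 0.19 (SE 0.072, adjusted p = 0.290).

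The other genes of the translation apparatus were examined as listed groups, which share a few genes. For the averaged difference, 48.5% of all loci were above 0 and 1.53% were called, the shares to set beside the counts below. Of 17 other mRNAs known for a TOP tract, 11 were above 0 with a median of 0.059 (-0.12 after quantile normalization) and none was called, from Eef1d at 0.27 (adjusted p = 0.127) to Pabpc1 at -0.37 (adjusted p = 0.378). Of 29 initiation factors, 17 were above 0 with a median of 0.043 (-0.029 after quantile normalization) and none was called. Eif4e, which binds the mRNA cap, had 0.23 (adjusted p = 0.195) and Eif5b, which joins the subunits, -0.53 (adjusted p = 0.197).

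Most genes that build ribosomes had differences below 0, again without a call. Of 47 ribosome biogenesis genes tested, 14 were above 0 and the median was -0.093 (-0.098 after quantile normalization), led by nucleolin (Ncl) at -0.63 (adjusted p = 0.292). Of 19 genes of RNA polymerase I and the Myc family, 8 were above 0 with a median of -0.039 (-0.082 after quantile normalization). Myc, a regulator of ribosome production, averaged 55.9 FPKM in male vehicle and 32.9 in male dexamethasone cultures and 45.8 and 30.8 in female ones. It was lower in all 6 same-numbered comparisons, as were 1311 of 10979 tested protein-coding loci. Its difference was -0.67 (SE 0.19, adjusted p = 0.167).

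Of 20 tested genes of mTORC1 and TOP control, 7 were above 0, the median was -0.066 (-0.071 after quantile normalization) and 1 was called. Sesn1, a stress-induced inhibitor of mTORC1, rose from 14.3, 10.8 and 11.8 FPKM in male vehicle to 52.3, 27.6 and 29.96 in male dexamethasone libraries, and from 14.7, 22.7 and 11.4 to 54.0, 56.8 and 31.2 in females. The groups did not overlap in either sex, and the averaged log2 difference was 1.47 (SE 0.22, adjusted p = 0.0106). Without male vehicle 3 and male dexamethasone 2 it was 1.54 and not called. Ddit4, another inhibitor and a known glucocorticoid target, had a difference of 0.78 (SE 0.32, adjusted p = 0.323), and Larp1 -0.38 (SE 0.17, adjusted p = 0.371). The protein and translation levels on which this pathway acts were not measured.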

How the data were processed

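Total RNA of the 12 cultures was sequenced with a stranded total RNA kit, per the labels. The deposited table gives FPKM per locus and library, which the authors made with Cuffdiff 2.2.1; the submitters' processing notes also name Cufflinks 2.2.1, TopHat2 2.0.9 and build GRCm38. No source used here gives the annotation release, the strand setting, how reads with several matches were treated or how libraries were scaled to each other. No read counts were used, so the depth of each library is unknown and the number of libraries sets the precision. The files hold 0 columns without a sample. Rows without a gene name number 2660.

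The linear models of limma 3.58.1 (R 4.3.3) were fitted to log2(FPKM + 1) (4 group means over all 12 libraries, empirical Bayes with trend, two-sided) over the 14931 loci whose mean reached 1 FPKM, with Benjamini-Hochberg adjustment over all of them and a call at an adjusted p under 0.05. A fold change on this scale understates that of low genes. The procedure was tested on simulated data with noise drawn independently for each gene and planted differences larger than the median described here. That test does not cover differences as small as these or shifts shared by many genes. Shares are summed FPKM of the genes over summed protein-coding FPKM. Genes were named by a rule: called genes, the 6 highest and 6 lowest averaged differences, the 5 highest and 5 lowest levels, untested genes, paralog pairs, X-linked genes and genes of short role lists. The genes and lists were chosen with earlier results of these data known. Gene types and positions came from the table and GENCODE M21, start windows from RefSeq on GRCm38.p6. Alternatives covered the pseudocount, filter, scaling, replicate number as a block and each library left out.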

Additional observations from a re-analysis of the deposited data

How the results depend on the processing

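No ribosomal protein gene was called in any of the 6 comparisons under any alternative run. The fit that replaces all groups by only those compared does not exist for the averaged effect and the interaction and was not run there. Quantile normalization turned the median difference of the 71 genes in males to -0.074 and that averaged over sexes to -0.027, and lowered that in females to 0.021. This scaling can itself remove a shift shared by abundant genes. The female minus male median in dexamethasone cultures became -0.017 when scaled to the protein-coding total and -0.012 when centred on the protein-coding median. The cause was not tested. With single libraries left out, medians ran from 0.067 to 0.17 in males, 0.12 to 0.32 in females, 0.11 to 0.23 averaged, 0.0045 to 0.22 for the interaction, -0.15 to 0.024 for sex in vehicle and -0.033 to 0.15 for sex in dexamethasone cultures. Averaged calls over all loci, 229 in all, ran to 804 with the block and 114 without the 2 libraries rich in unnamed loci, an alternative chosen after seeing the data, under which the median of the 71 genes was 0.17 and that of Sesn1 1.54, no longer called.

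Averaged differences changed sign after quantile normalization for 41 of the 71 genes, 13 of them among the 33 tested genes named by the rule: Rpl11 (-0.14), Rpl18 (-0.17), Rpl22 (-0.049), Rpl23a (-0.24), Rpl26 (-0.0088), Rpl3 (-0.011), Rpl38 (-0.031), Rpl5 (-0.020), Rps10 (-0.15), Rps15a (-0.16), Rps27 (-0.22), Rps27a (-0.070) and Rps3 (-0.13). Scaling to the protein-coding total did so for 6 of 71, of which the rule names Rpl23a (-0.078), Rpl29 (-0.0082), Rpl7l1 (-0.0017) and Rps10 (-0.018), and leaving out the 2 libraries for Rpl28 (0.053) and Rps16 (0.044). Single libraries left out gave -0.083 to 0.054 for Rpl23a, -0.056 to 0.048 for Rpl28, -0.020 to 0.14 for Rpl29, -0.16 to 0.026 for Rps16 and -0.39 to 0.053 for Rps4y2. Shares of protein-coding FPKM without joined rows were 8.35%, 8.75%, 8.004% and 8.73% in male vehicle, male dexamethasone, female vehicle and female dexamethasone cultures, and 9.57% in male dexamethasone cultures without the highest gene.

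Replicate number was also fitted as a block, within each sex for the dexamethasone effects and their interaction. For the comparisons of the sexes within vehicle or dexamethasone cultures, the number was shared across sexes. With these blocks, 0 of the 71 genes were called in any comparison. All medians kept their values, which a block cannot change in this balanced design. Calls over all loci were 148 in males and 187 in females, against 47 and 72 without the block. Averaged over sexes 44 of 71 genes then had an unadjusted p under 0.05, against 15, beside 24.8% of all loci, and the lowest adjusted p was 0.0520. Vehicle and dexamethasone libraries of the same sex and number correlated in their deviations from the group means at 0.167, 0.0819 and 0.126 in males and 0.0842, 0.141 and 0.164 in females. Within its sex, each of the 12 libraries correlated best with its own number, a hint from the data and not from the design. Male and female libraries of the same number and treatment correlated at -0.013 to 0.043.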
